A study of Caenorhabditis elegans with 12 samples.

Results

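The genes described here are 10 core members of the p38 and JNK stress kinase cascades of *Caenorhabditis elegans*, taken by gene name: *tir-1*, *nsy-1*, *sek-1*, *pmk-1*, *pmk-3*, *atf-7*, *mlk-1*, *kgb-1*, *jnk-1* and *vhp-1*. All 10 were among the 19089 genes with a row in the expression table. The measurements come from mRNA libraries of pooled whole worms of strain CL2006, whose body wall muscles express a human Aβ peptide from the *unc-54* promoter. Every group therefore carried the same transgene in the same tissue, and the RNA came from all tissues of the animal.

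Worms of the second generation on the same RNAi bacteria were grown at 20 °C and harvested at day 6 of adulthood, and each of the 4 groups had 3 repeats. EV0S worms were fed bacteria with the empty vector (EV) and soaked in M9 buffer, and EVPS worms were fed the same bacteria and exposed daily from day 1 to the 5MER peptide. AB0S worms were fed Aβ RNAi bacteria (AB) and given buffer only, and ABPS worms were fed Aβ RNAi bacteria and exposed to the peptide. The values are read counts per gene that the authors normalized with DESeq2 and then corrected for the effect of the repeats, and they are called normalized values below. A whole worm library cannot separate fewer cells of a type from less RNA per cell.

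In a MAP kinase cascade, an adaptor or receptor activates a MAP kinase kinase kinase (MAP3K), which phosphorylates a MAP kinase kinase (MAP2K), which in turn phosphorylates the MAP kinase. In the worm, the TIR-1, NSY-1, SEK-1, PMK-1 series of proteins and the transcription factor ATF-7 control immune genes of the intestine and epidermis. KGB-1 and JNK-1 belong to the JNK group and act in responses to metals, starvation and axon injury, and the phosphatase VHP-1 turns MAP kinases of both groups off. These steps act mainly through phosphorylation, which RNA levels do not measure.

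The third EV0S library stood apart from the other EV0S libraries. On the first principal component of the log2 values, which held 54.5% of the variance of 15516 genes, EV0S repeats 1 and 2 scored -36.77 and -33.94 and repeat 3 scored 25.05, near the AB0S libraries at 36.13 to 44.86. ABPS was also spread, with scores of -3.97, 26.29 and -24.19. The summed value of 32 major sperm protein genes moved along the same axis, at 17052 and 17528 in EV0S repeats 1 and 2 and 6473 in repeat 3, 10393 to 15366 in EVPS, 4749 to 5330 in AB0S and 6233 to 17470 in ABPS. The summed value of 10 of 10 neuronal markers lay between 13992 and 14324 in EV0S, 13174 and 14256 in EVPS, 13452 and 16452 in AB0S and 14894 and 15865 in ABPS. Their mean log2 level was 9.68 to 9.87 in EV0S, 9.55 to 9.64 in EVPS, 9.66 to 10 in AB0S and 9.69 to 9.75 in ABPS. The 10 muscle markers, all detected in every library, summed to 204542 and 201807 in EV0S repeats 1 and 2 and 122755 in repeat 3, 167184 to 173487 in EVPS, 121778 to 130406 in AB0S and 140524 to 189441 in ABPS. In AB0S against EV0S 10 of 10 muscle markers had a log2 difference below 0 (median -0.29, 1 called), where 55% of all genes were above 0. The human transgene is not among the listed genes, so its knockdown was not analysed here. Because of EV0S repeat 3, results are given with and without it. That library was singled out from these same data, so the fits without it are not separate support for any difference.

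Normalized values were divided by exon length to compare genes with each other. Per kb of exon, *atf-7* was the most abundant of the 10 transcripts, with a group mean of 2340 to 2595, and *jnk-1* the least, at 44.2 to 75.5. In EV0S the order of group means per kb was *atf-7*, *vhp-1* (713.4), *kgb-1* (542.3), *sek-1* (527.8), *nsy-1* (464.1), *pmk-1* (394.3), *pmk-3* (290), *tir-1* (281.6), *mlk-1* (243.6) and *jnk-1* (59.6). The EV0S libraries of *kgb-1* and *sek-1* overlapped in this order, as did those of *pmk-3* and *tir-1* and those of *tir-1* and *mlk-1*, and the other neighbours did not. In EVPS *kgb-1* took a place beside *nsy-1*, with 463.7 and 470.1 per kb and overlapping libraries. In AB0S *tir-1* had a higher mean than *pmk-3*, 372.5 against 319.1 per kb, again with overlapping libraries. These lengths join the exons of all transcripts of a gene, so the use of isoforms, of which *tir-1* has 13 in the annotation, was not resolved.

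**Figure D1:**
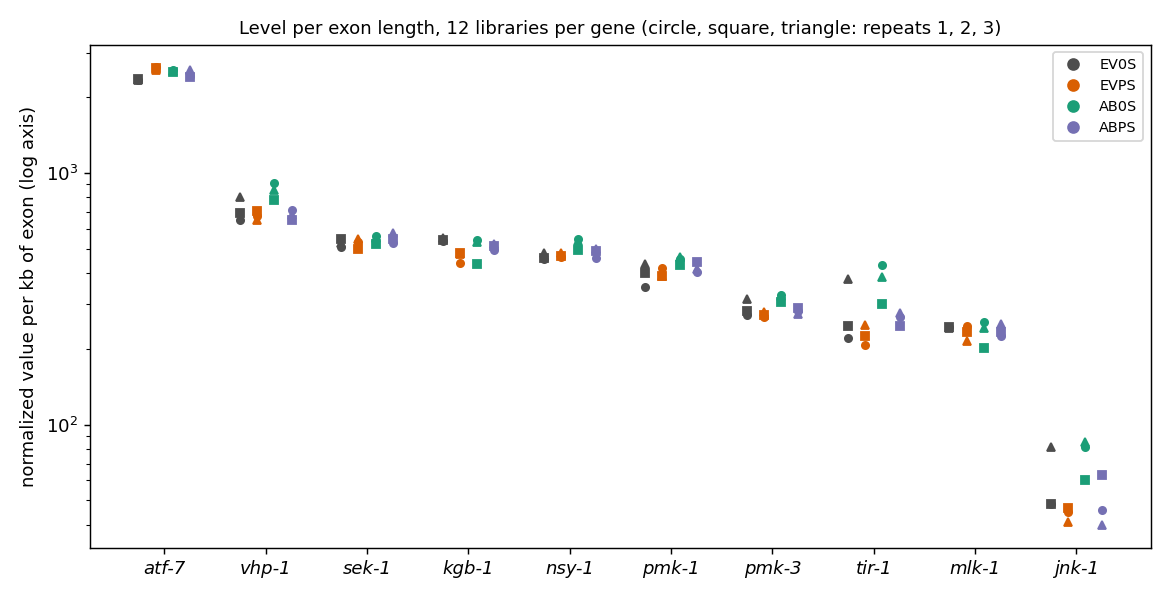
Normalized value per kb of exon (log axis) of the 10 genes, with 1 point per library, coloured by group and with a marker shape for each repeat. The atf-7 libraries lie highest, with group means of 2340 to 2595, and the jnk-1 libraries lowest, with group means of 44.2 to 75.5.

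*tir-1* (WBGene00006575, chromosome III, 3869590 to 3901642, minus strand of WBcel235) encodes the TIR domain adaptor at the head of the p38 cascade, the worm counterpart of SARM1. Its normalized values were 1335, 1495 and 2291 in EV0S repeats 1 to 3 and 1254, 1365 and 1512 in EVPS. They were 2603, 1830 and 2342 in AB0S and 1624, 1488 and 1683 in ABPS. All 3 ABPS libraries lay below all 3 AB0S libraries, and EV0S repeat 3 fell inside the AB0S range. *nsy-1* (WBGene00003822, chromosome II, 5022757 to 5029999, plus strand) encodes the MAP3K that binds TIR-1, related to human ASK1. It was at 2300, 2320 and 2427 in EV0S, 2345, 2369 and 2422 in EVPS, 2771, 2506 and 2716 in AB0S and 2321, 2481 and 2526 in ABPS. The AB0S libraries were above every EV0S and EVPS library and overlapped with those of ABPS because ABPS repeat 3 was above AB0S repeat 2.

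*sek-1* (WBGene00004758, chromosome X, 7816734 to 7821036, plus strand) encodes the MAP2K below NSY-1. Its 12 libraries lay between 1027 and 1180, with group means of 1084 ± 41.1 in EV0S, 1078 ± 48.4 in EVPS, 1117 ± 41.3 in AB0S and 1127 ± 52 in ABPS (SD, n = 3), and all groups overlapped. *pmk-1* (WBGene00004055, chromosome IV, 8148794 to 8151266, plus strand) encodes the p38 kinase of the immune pathway. It was at 588.5, 665 and 723.3 in EV0S, 699, 649 and 652.4 in EVPS, 757.2, 717.4 and 774.8 in AB0S and 673.3, 735.5 and 694.7 in ABPS. AB0S and EV0S overlapped only through EV0S repeat 3. *pmk-3* (WBGene00004057, chromosome IV, 8139219 to 8143154, plus strand) encodes the p38 kinase that acts below DLK-1 in synapse development and axon regrowth. It was at 507.4, 529.5 and 587.4 in EV0S, 498, 507 and 523.7 in EVPS, 612.9, 571.5 and 603.1 in AB0S and 529.1, 540.2 and 513.6 in ABPS. The ABPS libraries were all below those of AB0S, and EV0S repeat 3 was again among the AB0S values.

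*pmk-3*, *pmk-2* and *pmk-1* follow each other on 1 strand and form an operon, with 345 bases between *pmk-3* and *pmk-2* and 145 bases between *pmk-2* and *pmk-1*. *pmk-2*, the p38 kinase in the middle, was at 195.2, 168.9 and 268.1 in EV0S and 178.6, 168.3 and 169.9 in EVPS. It was at 268.1, 243 and 244.3 in AB0S and 188.8, 208.2 and 164.6 in ABPS. Like those of *pmk-3*, its ABPS libraries were all below the AB0S libraries and EV0S repeat 3 was as high as AB0S. Per kb of exon, the *pmk-2* mean of 137.1 in EV0S was below those of *pmk-3* and *pmk-1*, with no overlap between libraries.

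*atf-7* (WBGene00000223, chromosome III, 4491627 to 4499045, minus strand) encodes the bZIP transcription factor that PMK-1 regulates. It was at 6333, 6382 and 6338 in EV0S and 7100, 7098 and 6927 in EVPS. It was at 6940, 6818 and 6898 in AB0S and 6542, 6522 and 6939 in ABPS. The EV0S libraries were below all other libraries, and EV0S repeat 3 did not stand apart for this gene.

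Of the JNK branch, *mlk-1* (WBGene00003374, chromosome V, 5056378 to 5064811, minus strand) encodes the MAP3K above the MAP2K MEK-1 and KGB-1. Its libraries lay between 725.3 and 927.4, with both ends of that range in AB0S, and all groups overlapped. *kgb-1* (WBGene00002187, chromosome IV, 405621 to 410035, minus strand) encodes the JNK-like kinase of the metal stress response. It was at 870.3, 877.4 and 893 in EV0S, 711.4, 777.8 and 768.5 in EVPS, 878.7, 703.7 and 864.1 in AB0S and 799.7, 833 and 842.8 in ABPS. The EVPS libraries were all below the EV0S libraries, and AB0S repeat 2 was the lowest of the 12. *kgb-2*, a near copy of *kgb-1*, had a group mean of 33.9 to 42.2 per kb of exon against 463.7 to 542.3 for *kgb-1*, and how reads shared by the 2 genes were counted is not given in the sources used here.

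*jnk-1* (WBGene00002178, chromosome IV, 6957641 to 6963719, plus strand) encodes the JNK of the nervous system. It was at 115.6, 115.1 and 194.7 in EV0S and 107, 110.9 and 97.5 in EVPS. It was at 193.7, 142.9 and 202.3 in AB0S and 108.7, 149.6 and 95.2 in ABPS. The EVPS libraries were below those of EV0S, and EV0S repeat 3 was as high as AB0S repeats 1 and 3. *vhp-1* (WBGene00006923, chromosome II, 5323276 to 5340829, plus strand) encodes the phosphatase that inactivates KGB-1 and PMK-1. It was at 2011, 2145 and 2485 in EV0S, 2096, 2177 and 2006 in EVPS, 2825, 2414 and 2641 in AB0S and 2215, 2019 and 2114 in ABPS. All ABPS libraries were below all AB0S libraries, and the only EV0S library inside the AB0S range was repeat 3.

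**Figure D2:**
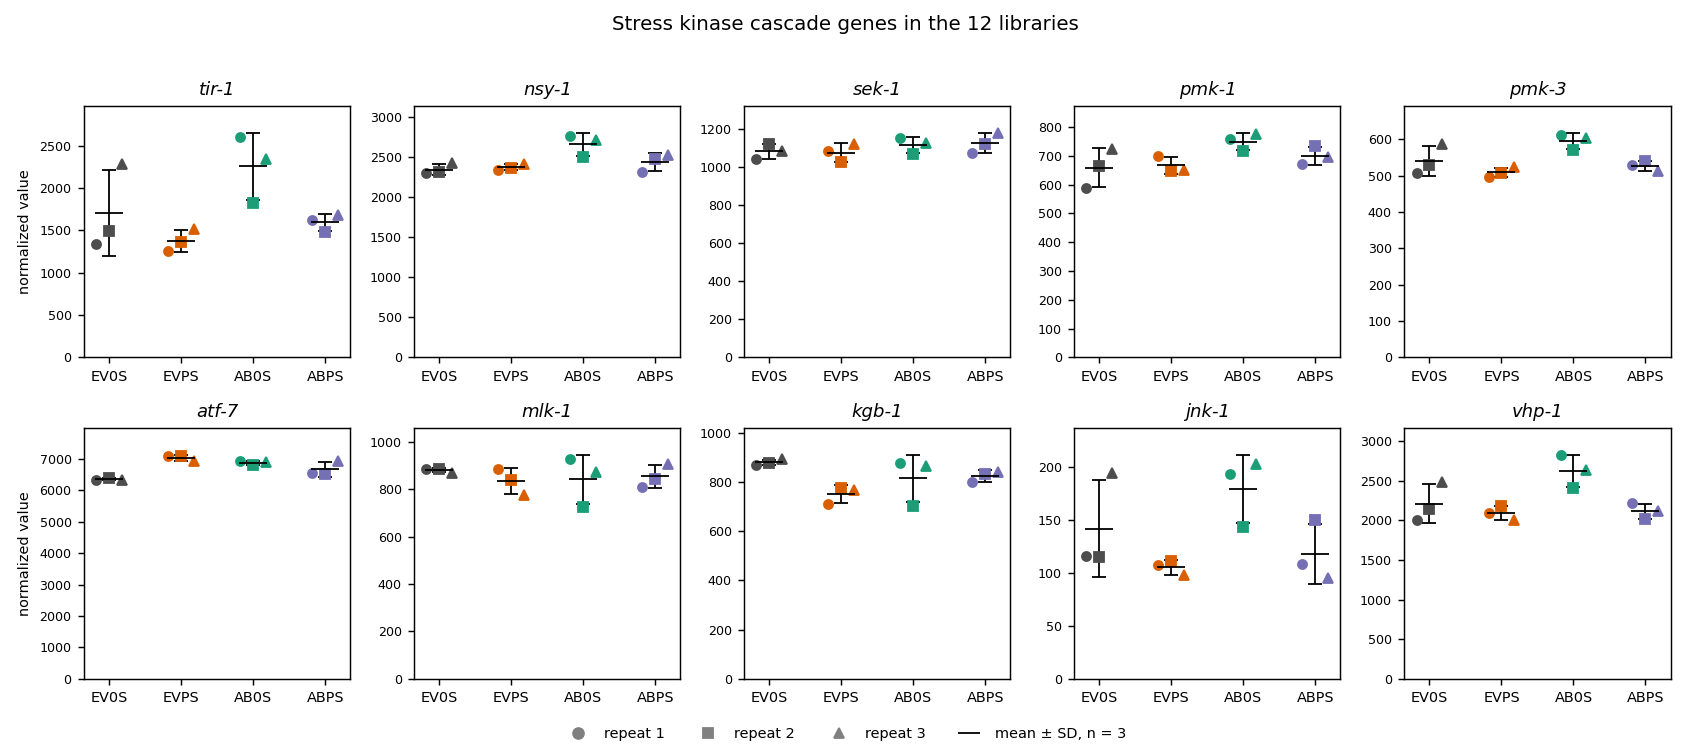
Normalized values of the 10 genes in the 12 libraries, with 1 panel per gene, a marker shape per repeat and bars for the mean ± SD of 3 libraries. EV0S repeat 3 lies beside the AB0S libraries for tir-1 (2291), pmk-3 (587.4), jnk-1 (194.7) and vhp-1 (2485), and with the other EV0S libraries for atf-7 (6338) and kgb-1 (893).

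The first comparison asked what the peptide did in worms with Aβ expression (EVPS against EV0S). No stress kinase gene passed the test in either direction, whereas 7.33% of all genes did, 5.51% higher and 1.82% lower (limma on log2(value + 1), Benjamini-Hochberg adjusted p below 0.1 over all 19089 genes). The differences closest to the threshold were in *atf-7*, with a ratio of means of 1.11 (7042 ± 99.1 against 6351 ± 27.1; SD, n = 3), and *kgb-1*, with a ratio of 0.855 (752.6 ± 36 against 880.2 ± 11.6; SD, n = 3). The log2 difference was 0.15 for *atf-7* (SE 0.05, limma adjusted p = 0.137) and -0.23 for *kgb-1* (SE 0.08, limma adjusted p = 0.173). These were the 2 members with an unadjusted p below 0.05, a level that 19.4% of all genes reached.

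Groups did not overlap for *atf-7* (EVPS above) and for *kgb-1* and *jnk-1* (EVPS below), 3 of 10 genes, beside 27.3% of all genes. The median log2 difference over the 10 genes was -0.08, beside -0.05 over all genes. Of the 10, 3 were above 0, beside 42.4% of all genes. *jnk-1* had a log2 difference of -0.39 with a 95% interval of -0.93 to 0.16, and *tir-1* one of -0.27 with an interval of -0.61 to 0.06. For both, the difference within repeat 3 was the main part, -0.99 and -0.60 on the log2 scale, against -0.11 and -0.05 for *jnk-1* and -0.09 and -0.13 for *tir-1* in repeats 1 and 2. Of the 10 neuronal markers, 9 had a log2 difference below 0 in this contrast and none passed (median -0.20), and their part in the values of *tir-1*, *kgb-1* and *jnk-1* was not tested. All 15 oocyte markers were above 0 (median 0.29, 10 called higher), and their part in the values of the 10 genes was not tested. Without EV0S repeat 3 the fitted values were -0.10 for *jnk-1* and -0.09 for *tir-1*, and that of *vhp-1* changed sign, from -0.08 to 0.02. The kinases in the middle of the p38 cascade had log2 differences of 0.02 for *nsy-1*, -0.01 for *sek-1* and 0.02 for *pmk-1*, with 95% intervals of -0.11 to 0.14, -0.15 to 0.13 and -0.16 to 0.20.

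Within repeats, *atf-7* was higher in EVPS in 3 of 3 pairs (0.16, 0.15 and 0.13 on the log2 scale) and *kgb-1* lower in 3 of 3 (-0.29, -0.17 and -0.22). *atf-7* passed the threshold with the filter for a mean value of at least 10, without the replicate block, after rescaling by trimmed mean of M values (TMM) factors and with the sperm gene level in the model, where *jnk-1* also passed, lower. A fit without the block does not count the repeat terms that the authors had already removed, so its p-values may be too small. *kgb-1* passed only without AB0S repeat 2 (limma adjusted p = 0.0843).

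**Figure D3:**
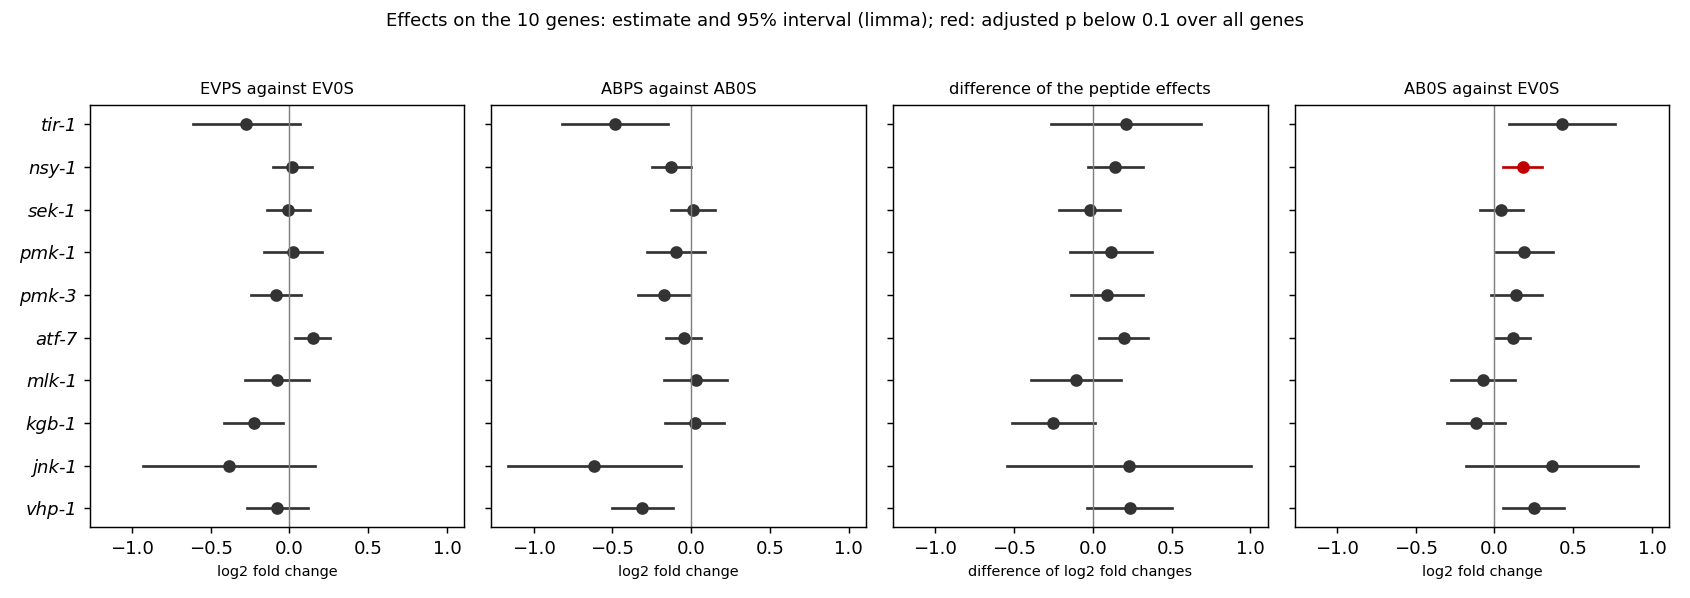
Log2 fold change of each of the 10 genes in the 4 contrasts (x axis), with the limma estimate as a point and its 95% interval as a bar, and red where the adjusted p was below 0.1. The only red point is nsy-1 in AB0S against EV0S, at 0.18.

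The second comparison asked what the peptide did in worms fed Aβ RNAi (ABPS against AB0S). None of the 10 genes and none of the 19089 genes passed limma's adjusted p of 0.1 (0%), and the smallest adjusted p of any gene was 0.279. At an unadjusted p below 0.05 there were 3034 genes (15.9%), among them *tir-1*, *nsy-1*, *pmk-3*, *jnk-1* and *vhp-1*. The ratio of the ABPS mean to the AB0S mean was 0.708 for *tir-1*, 0.656 for *jnk-1*, 0.806 for *vhp-1*, 0.886 for *pmk-3* and 0.917 for *nsy-1*.

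The log2 differences were -0.48 for *tir-1* (SE 0.15, limma adjusted p = 0.279), -0.61 for *jnk-1* (SE 0.24, limma adjusted p = 0.292), -0.31 for *vhp-1* (SE 0.09, limma adjusted p = 0.279), -0.17 for *pmk-3* (SE 0.07, limma adjusted p = 0.296) and -0.13 for *nsy-1* (SE 0.06, limma adjusted p = 0.312). The groups did not overlap for *tir-1*, *pmk-3* and *vhp-1*, 3 of 10 genes, beside 29.4% of all genes. In each of the 3 pairs of repeats *tir-1*, *nsy-1*, *pmk-3* and *vhp-1* were lower in ABPS. *jnk-1* was lower in 2 of 3 pairs, with ABPS repeat 2 above AB0S repeat 2. The other genes had log2 differences of 0.01 for *sek-1*, -0.10 for *pmk-1*, -0.05 for *atf-7*, 0.03 for *mlk-1* and 0.02 for *kgb-1*. In the same contrast 7 of the 10 neuronal markers were below 0 (median -0.20) and 9 of the 10 muscle markers above 0 (median 0.42), with none passing, and their part in these values was not tested. Over all genes, 46.7% were above 0. The median over the 10 genes was -0.11, beside -0.02 over all genes.

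The calls for these genes depended on a library that is not part of the contrast. Without EV0S repeat 3, which enters only through the shared estimate of the spread and the repeat terms, 3085 of all 19089 genes passed. So did 3 of the 10 genes, *tir-1* (limma adjusted p = 0.0229), *vhp-1* (0.0202) and *jnk-1* (0.063), all lower. Fitted on the 6 libraries of the contrast alone, 2427 of 19089 genes passed, 68.4% of them higher. Among them were *tir-1* and *vhp-1*, both lower. With the sperm gene level in the model 3 genes passed, and none of the 10 was among them.

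The difference between the 2 peptide effects asked whether the peptide acted differently with and without Aβ RNAi. None of the 10 genes passed, beside 2.98% of all genes, 2.37% higher and 0.608% lower. The difference farthest from 0 in units of its error was in *atf-7*, at 0.20 on the log2 scale (SE 0.07, limma adjusted p = 0.198), with the peptide effect at 0.15 in EV worms and -0.05 in AB worms. *kgb-1* had a difference of -0.25 (SE 0.12, limma adjusted p = 0.299) and *vhp-1* one of 0.23 (SE 0.12, limma adjusted p = 0.341). For the other genes the intervals were wide relative to the effects, for example -0.27 to 0.69 for *tir-1* and -0.54 to 1.00 for *jnk-1*. Without EV0S repeat 3, *atf-7* (0.19, limma adjusted p = 0.0715) and *vhp-1* (0.33, limma adjusted p = 0.0456) passed. These were 2 of the 10 genes, beside 4908 of all 19089 genes.

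The last comparison asked what Aβ RNAi did in worms without peptide (AB0S against EV0S). It shares the EV0S and AB0S libraries with the comparisons above. *nsy-1*, the MAP3K, rose by 13.4% in mean value (2664 ± 140 against 2349 ± 68.2; SD, n = 3), or 0.18 on the log2 scale (SE 0.06, limma adjusted p = 0.0892), and was higher in 3 of 3 pairs. It was the only one of the 10 genes to pass, beside 11.1% of all genes, 2.82% higher and 8.26% lower. The call was lost when any single library other than EV0S repeat 3 was left out, with limma adjusted p between 0.102 and 0.301, and also with only the 2 groups fitted (0.394), quantile normalization (0.205) and the sperm gene level in the model (0.375).

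Of the other 9 genes, 7 had a higher mean in AB0S and 2 (*mlk-1* and *kgb-1*) a lower one. Over all genes, 55% had a log2 difference above 0 in this contrast. The AB0S mean was 32.3% higher for *tir-1*, 26.7% for *jnk-1*, 18.7% for *vhp-1*, 13.8% for *pmk-1*, 10% for *pmk-3* and 8.41% for *atf-7*. None of these passed the test. The log2 difference was 0.43 for *tir-1* (SE 0.15, limma adjusted p = 0.128), 0.25 for *vhp-1* (SE 0.09, limma adjusted p = 0.122), 0.19 for *pmk-1* (SE 0.08, limma adjusted p = 0.206) and 0.12 for *atf-7* (SE 0.05, limma adjusted p = 0.203). *tir-1*, *nsy-1*, *pmk-1*, *atf-7* and *vhp-1* reached an unadjusted p below 0.05, as did 22.5% of all genes. The groups did not overlap for *nsy-1* and *atf-7*, 2 of 10 genes, beside 27% of all genes. The median log2 difference over the 10 genes was 0.16, beside 0.03 over all genes.

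Without EV0S repeat 3, 6 of the 10 genes were called higher in AB0S, beside 6524 of all 19089 genes called in either direction. These were *tir-1* (log2 difference 0.61, limma adjusted p = 0.00469), *nsy-1* (0.19, 0.0426), *pmk-1* (0.26, 0.0423), *pmk-3* (0.20, 0.0797), *jnk-1* (0.65, 0.0457) and *vhp-1* (0.34, 0.0075). *pmk-2* of the same operon was also higher in that fit (0.51, limma adjusted p = 0.0117). *sek-1*, *atf-7*, *mlk-1* and *kgb-1* did not pass. EV0S repeat 3 was singled out in these same data because it lay near AB0S. Leaving it out can by itself widen the difference between these groups, so these calls are not separate support for it. With the sperm gene level in the model instead, none of the 10 passed and *jnk-1* changed sign, to -0.28.

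**Figure D4:**
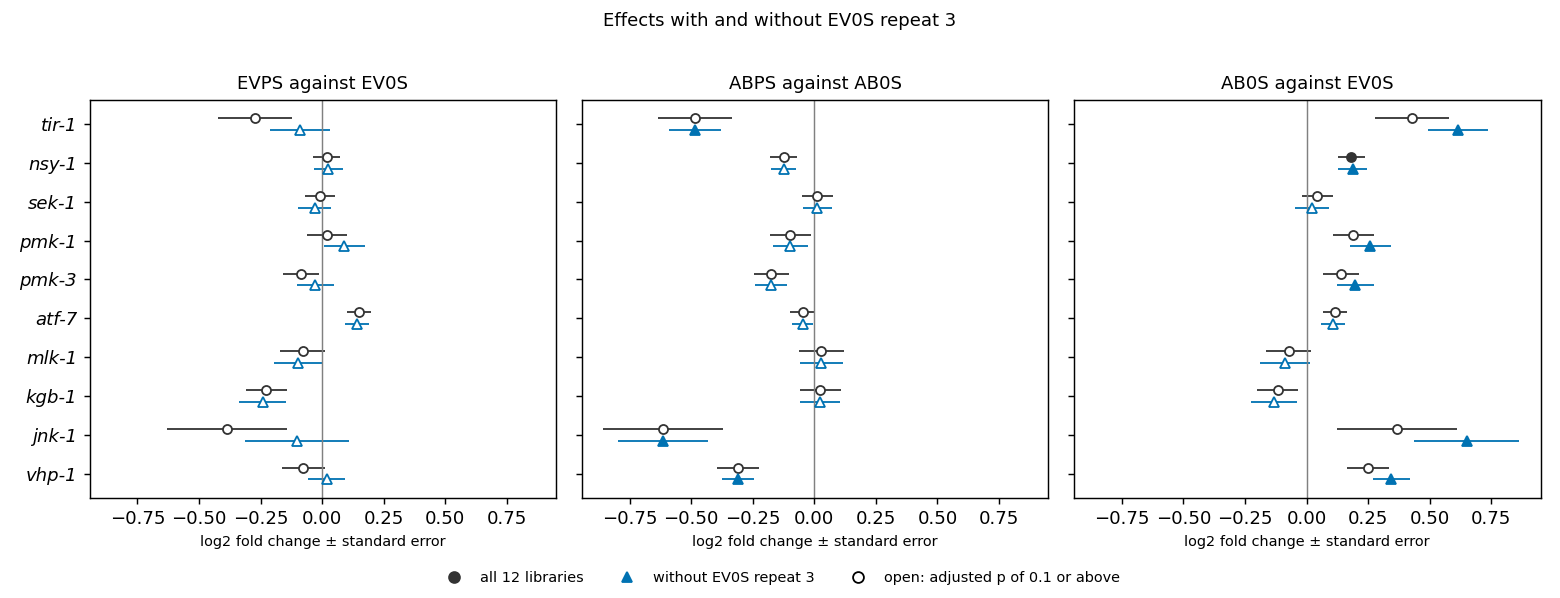
Log2 fold change ± standard error of the 10 genes in 3 contrasts (x axis), fitted by limma on all 12 libraries (circles) and without EV0S repeat 3 (triangles), filled where the adjusted p was below 0.1. In AB0S against EV0S 1 circle (nsy-1) and 6 triangles are filled, and tir-1 moves from 0.43 to 0.61. Over all 19089 genes, 2114 passed in the fit of all libraries and 6524 without EV0S repeat 3.

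Across the 12 libraries, *tir-1*, *nsy-1*, *pmk-1*, *pmk-3*, *jnk-1* and *vhp-1* had correlations of 0.679 to 0.952 with each other, a group picked after its values were seen. Of the pairs, *tir-1* and *pmk-3* had the highest correlation of log2 values (Pearson r = 0.952 over 12 libraries, and 0.888 after the group means were subtracted). *tir-1* and *vhp-1* had r = 0.918, *pmk-3* and *jnk-1* 0.918, and *pmk-3* and *vhp-1* 0.906. With these 6 genes *atf-7* had r between -0.17 and 0.39, and *kgb-1* was closest to *mlk-1*, the MAP3K above it (0.67). After the group means were subtracted, *kgb-1* was closest to *nsy-1* (0.825), ahead of *mlk-1* (0.691). These correlations are descriptions, because the libraries share the main axis of variation of all genes. The score on the first principal component had r = 0.895 with *pmk-3*, 0.869 with *jnk-1*, 0.847 with *pmk-1*, 0.801 with *tir-1*, 0.787 with *vhp-1* and 0.76 with *nsy-1*. It had r = 0.05 with *atf-7* and 0.10 with *kgb-1*. The mean log2 level of the neuronal markers had r = 0.893 with *tir-1*, 0.879 with *pmk-3*, 0.836 with *jnk-1*, 0.791 with *vhp-1*, 0.729 with *nsy-1*, 0.726 with *kgb-1* and 0.628 with *pmk-1*. The mean level of the sperm genes had r = -0.866 with *jnk-1*, -0.823 with *pmk-3*, -0.817 with *pmk-1*, -0.756 with *vhp-1*, -0.71 with *nsy-1* and -0.694 with *tir-1*. The mean level of oocyte markers had r = 0.755 with *atf-7*, -0.646 with *kgb-1*, -0.614 with *tir-1* and *pmk-3*, and -0.608 with *jnk-1*. For the remaining members it lay between -0.419 (*vhp-1*) and -0.134 (*mlk-1*). The part of cell composition in the differences between groups was not tested beyond the model with the sperm gene level.

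Among 15515 other genes (mean value 10 or more), those most like *tir-1* over the 12 libraries were *scd-1* (r = 0.987), *dlg-1* (0.986) and *unc-129* (0.974). Those most like *pmk-3* were *agr-1* (0.982), *ncx-3* (0.981) and *fmi-1* (0.977). *pmk-1* had *EGAP4.1* (0.962), *F36G9.7* (0.949) and *pals-3* (0.947), and *kgb-1* had *hum-4* (0.955), *unc-43* (0.949) and *ace-2* (0.934). *unc-43* encodes the CaM kinase that acts above NSY-1 in neurons, and it was on the list of further p38 pathway genes.

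The other genes of the p38 pathway were counted on a list of 19, all with a row. In EVPS against EV0S, *mtk-1* rose and *sek-4* fell, and the other 17 did not pass, so that 10.5% of the list passed beside 7.33% of all genes. *mtk-1*, a MAP3K related to human MAP3K4, was at 3618, 3809 and 3606 in EV0S and 4767, 4937 and 4532 in EVPS. It was at 4559, 4022 and 4566 in AB0S and 3553, 3491 and 3949 in ABPS. The EVPS and AB0S libraries were each above all EV0S libraries, and the ABPS libraries were below those of AB0S. *mtk-1* rose by 0.37 on the log2 scale in EVPS (SE 0.07, limma adjusted p = 0.0511) and by 0.25 in AB0S (SE 0.07, limma adjusted p = 0.0803), both against EV0S. In ABPS against AB0S it was at -0.26 (limma adjusted p = 0.279), and the difference between the peptide effects was 0.63 (SE 0.10, limma adjusted p = 0.0707). The *mtk-1* call in EVPS was kept in 13 of 19 other settings and lost with only the 2 groups fitted (limma adjusted p = 0.201). Its call in AB0S was kept in 8 of 19. It was lost with only the 2 groups fitted (0.284) and under quantile normalization (0.121).

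*sek-4*, by its name a relative of the MAP2K gene *sek-1*, had 131.6, 128.7 and 117.9 in EV0S and 97.7, 98.8 and 87.3 in EVPS and fell by 0.41 on the log2 scale (SE 0.12, limma adjusted p = 0.0888). The call was kept in 5 of 19 other settings, and it was lost with a pseudocount of 5 (limma adjusted p = 0.107), with only the 2 groups fitted (0.241) and under quantile normalization, where the value was -0.25 (0.346). It was also lost with any single library but EV0S repeat 3 left out (limma adjusted p between 0.104 and 0.33). Its ABPS libraries (94.4, 93.8 and 91.1) were also all below those of AB0S (117.6, 110.2 and 116.7), where the log2 difference was -0.30 (limma adjusted p = 0.288). *skn-1*, the oxidative stress factor that PMK-1 phosphorylates, had a log2 difference of 0.22 in EVPS against EV0S (limma adjusted p = 0.116). *dlk-1*, the MAP3K above PMK-3, had -0.15 (0.3), *mkk-4*, the MAP2K between them, -0.07 (0.763) and *pmk-2* -0.26 (0.429). Of the 11 further JNK pathway genes with a row, none passed in any contrast. *mek-1*, the MAP2K between MLK-1 and KGB-1, had a log2 difference of 0.17 in EVPS against EV0S (limma adjusted p = 0.185) and 0.05 in ABPS against AB0S (0.751).

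The ERK cascade, the third MAP kinase module, was counted for comparison over 14 genes. In EVPS against EV0S 5 rose and 1 fell, 42.9% of the list beside 7.33% of all genes (5.51% higher and 1.82% lower). No test compared this list with the 10 stress kinase genes. Those that rose were *lin-45*, the Raf kinase (0.34), *mpk-1*, the ERK kinase (0.20), *ksr-2*, a Raf scaffold (0.29), *lip-1*, an ERK phosphatase of the germline (0.36), and *lin-3*, the EGF ligand (0.32 on the log2 scale, limma adjusted p between 0.0511 and 0.0983). *lin-1*, an ETS factor that ERK regulates, fell by 0.42 on the log2 scale (limma adjusted p = 0.0511). All 6 calls were lost when only the EV0S and EVPS libraries were fitted (limma adjusted p between 0.201 and 0.236), and those of *mpk-1* (0.12, limma adjusted p = 0.228) and *ksr-2* (0.24, 0.122) under quantile normalization. With single libraries left out, 0 to 6 of the 14 passed. In the same contrast 10 of 15 oocyte markers rose, beside 5.51% of all genes. The summed value of these markers was 237115 to 296191 in EV0S and 315475 to 342937 in EVPS. Its part in the ERK cascade values was not tested.

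Genes downstream of the stress kinases were followed by RNA level on a list of 20 antimicrobial, immune and stress genes, of which 18 had a row. In both peptide comparisons and in the difference between them none passed. In AB0S against EV0S 2 rose and 3 fell, 27.8% of the 18, beside 11.1% of all genes. *nlp-30*, an antimicrobial peptide gene of the epidermis whose cluster depends on the TIR-1, SEK-1 and PMK-1 pathway, was at 258.7, 253.3 and 168.7 in EV0S and 93.5, 92.2 and 96 in AB0S. It was at 214.1, 210.6 and 172.5 in EVPS and 114.7, 102.7 and 185.3 in ABPS. The AB0S libraries were below all others, and *nlp-30* fell by 1.24 on the log2 scale in AB0S against EV0S (SE 0.24, limma adjusted p = 0.0328).

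Its neighbours *nlp-29* and *nlp-31* fell by 0.63 (SE 0.19, limma adjusted p = 0.0875) and 0.42 (SE 0.13, limma adjusted p = 0.0935) on the log2 scale. *nlp-29* was at 995.7, 927.4 and 563.1 in EV0S and 450.1, 531.8 and 584 in AB0S, so that EV0S repeat 3 lay inside the AB0S range. These genes are similar in sequence, and reads that they share may be split between them, which was not tested. *dod-24*, an immune gene of the intestine, was at 636.1, 668.5 and 485.5 in EV0S and 983.1, 811.4 and 840.4 in AB0S, a rise of 0.57 (SE 0.16, limma adjusted p = 0.0757). *kreg-1*, which KGB-1 induces, was at 65.2, 58.7 and 49.4 in EV0S and 83.7, 124 and 88.4 in AB0S, a rise of 0.75 (SE 0.23, limma adjusted p = 0.0901). Without EV0S repeat 3 all 5 of these genes passed in the same direction. With only the 2 groups fitted *nlp-29* (limma adjusted p = 0.238), *nlp-31* (0.205) and *kreg-1* (0.182) did not pass, under quantile normalization *nlp-29* (0.123) and *nlp-31* (0.154) did not, and with the sperm gene level in the model *nlp-29* (0.442), *nlp-30* (0.224), *nlp-31* (0.414) and *kreg-1* (0.108) did not. With single libraries left out, 0 to 11 of the 18 genes passed.

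The intestinal p38 target genes *sysm-1*, *irg-4* and *irg-5* had their lowest EV0S value in repeat 3, at 1212 against 2656 and 2330 for *sysm-1*, 238 against 630.6 and 562.6 for *irg-4*, and 46.6 against 82.9 and 89.8 for *irg-5*. In EVPS against EV0S their log2 differences were 0.36 (limma adjusted p = 0.413), 0.58 (0.355) and 0.25 (0.686). Without that library they were 0.04 (0.882), 0.17 (0.712) and -0.08 (0.872). The summed value of the 9 intestinal markers was also lowest in that library, at 648091 against 999934 and 1113612 in the other EV0S libraries. Most of that sum came from the yolk genes *vit-2* (244400) and *vit-6* (347600). The mean log2 level of the markers was 12.88 against 13.5 and 13.58. Among the EV0S libraries *elt-2* was the only marker not lowest in repeat 3, at 382.6 against 358 and 376.6. *gcs-1*, a SKN-1 target, had a log2 difference of 0.09 in EVPS against EV0S (limma adjusted p = 0.628), and *nlp-29* one of -0.06 (0.914) and *kreg-1* one of -0.20 (0.711).

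**Figure D5:**
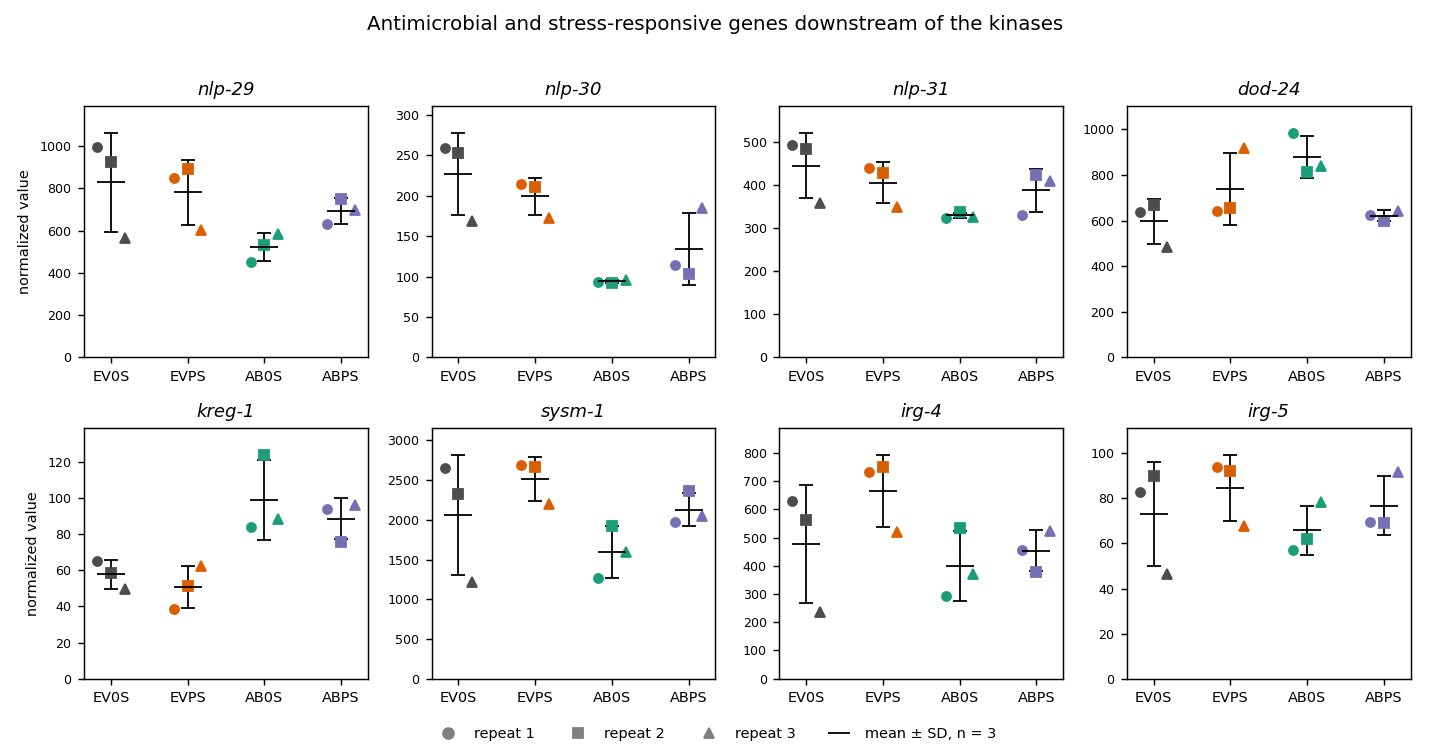
Normalized values of 8 genes downstream of the stress kinases in the 12 libraries, with a marker shape per repeat and bars for the mean ± SD of 3 libraries. The 3 AB0S libraries of nlp-30 lie at 92.2 to 96, below the other libraries, and EV0S repeat 3 is the lowest EV0S library in all 8 panels.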

How the data were processed

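RNA-seq of pooled whole CL2006 worms was used from all 12 libraries (4 groups of 3 repeats, from the sample titles). Per the labels and the study's methods, the authors trimmed the reads (cutadapt 2.10), aligned them to WBcel235 with TopHat2 2.1.1, counted them per gene with HTSeq 2.01 and normalized the counts with DESeq2 1.36.0. What was deposited is the normalized count after the authors had also removed the effect of the 3 repeats, by a method not given in the sources used here. They are on a linear scale, 0.325% of them are whole (within 0.001), and 307 of 229068 are below 0 (lowest -0.64), so no read count test was used and the depth is unknown. The libraries were stranded, and whether counting used strand is not given in the sources used here. The study describes the 3 repeats as independent. The p-values rest on the spread of the libraries around the fitted group and repeat terms. That spread is shared by the 4 groups and drawn by limma toward that of other genes.

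Negative values were replaced by 0. The model (limma 3.58.1 in R 4.3.3, eBayes with trend) described log2(value + 1) in 12 libraries by group and repeat number. Benjamini-Hochberg adjustment ran over 19089 genes, with a threshold of 0.1. An exact permutation test of 3 libraries against 3 cannot give a p below 0.1. The repeat block follows the study's own correction for the repeats. Same-numbered libraries did not deviate together in the corrected values (mean correlation of deviations from group means -0.18, and 0.09 for different numbers). Because the correction removes deviations that a repeat shares, these correlations cannot tell whether the block was needed. Positions and exon lengths are from Ensembl release 115, which holds 19085 of the 19089 genes. Of the members, *tir-1*, *nsy-1*, *sek-1*, *atf-7*, *mlk-1* and *jnk-1* overlap other genes by 21 to 97 bases. *tir-1*, *pmk-1*, *pmk-3* and *kgb-1* each have the 3 genes of highest correlation named. Other listed genes were named if they passed a contrast or were *pmk-2*, *mek-1*, *mkk-4*, *dlk-1*, *skn-1*, *sysm-1*, *irg-4*, *irg-5*, *nlp-29*, *gcs-1* or *kreg-1*, and *kgb-2* and *unc-43* were added for sequence likeness and for being on a list. The members and all lists were chosen with earlier results of these data known.

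The alternatives were a pseudocount of 5, a mean value of at least 10, no replicate block, only the 2 groups compared, quantile normalization, rescaling by trimmed mean of M values (TMM) factors, the level of 32 sperm genes as a covariate, and each library left out in turn. In simulated data for EVPS against EV0S, with 200 of 19089 genes changed, 66.3% of log2 changes of 1, 34.3% of changes of 0.5 and 0% of changes of 0.25 were recovered. Figures were drawn with matplotlib 3.10.9.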

Additional observations from a re-analysis of the deposited data

Results flagged for a closer look

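For 3 genes of the listed MAP kinase pathways the peptide effect differed between EV and AB worms by the test of the difference itself, beside 2.98% of all genes. They were 1 of the 19 further p38 pathway genes, 2 of the 14 ERK cascade genes and none of the 10 stress kinase genes or the 11 further JNK pathway genes. The difference (EVPS against EV0S minus ABPS against AB0S, on the log2 scale) was 0.63 for *mtk-1* (limma adjusted p = 0.0707), with effects of 0.37 and -0.26. It was 0.43 for *lip-1* (limma adjusted p = 0.0775), with effects of 0.36 and -0.07, and -0.47 for *lin-1* (limma adjusted p = 0.0926), with effects of -0.42 and 0.05. Over the other settings and left-out libraries the adjusted p ranged from 0.00496 to 0.279 for *mtk-1*, 0.012 to 0.281 for *lip-1* and 0.0285 to 0.29 for *lin-1*.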

How the results depend on the processing

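Of 750 values (10 genes, 4 contrasts, each other setting and left-out library), 683 kept their direction and side of the threshold, 14 lost the threshold, 23 gained it and 30 changed sign, none of them a value called in the reported fit. Without the replicate block, the genes that passed were 2490 in EVPS against EV0S (1 of the 10, *atf-7*), 7 in ABPS against AB0S, 1785 in the difference of the peptide effects (1, *atf-7*) and 3380 in AB0S against EV0S (3: *nsy-1*, *atf-7* and *vhp-1*). The p-values of that fit may be too small, because the repeat effect had already been removed from the values. After the filter at a mean of 10, the first contrast had 1 (*atf-7*) and the difference 909 genes. With only the 2 groups compared, EVPS against EV0S had 0 genes (3702 at an unadjusted p below 0.05 in the fit of all groups), ABPS against AB0S 2427 (2 of the 10) and AB0S against EV0S 791 (0 of the 10). Quantile normalization gave 605, 1, 922 and 1100 genes in the order of contrasts above (0 of the 10 in AB0S against EV0S). TMM rescaling gave 1 of the 10 in EVPS against EV0S, 1304 genes in the difference and the same 3 in AB0S against EV0S, where 42.4% of calls were higher in place of 25.4%. With the sperm gene level in the model, 3333 (2 of the 10), 3, 1467 and 123 genes passed (0 of the 10 in the last). The cause of these shifts was not tested.

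Log2 values that changed sign were, under quantile normalization, *nsy-1* (-0.059), *mkk-4* (0.063) and *gcs-1* (0) in EVPS against EV0S and *sek-1* (-0.01) in ABPS against AB0S. Under TMM, *sek-1* was at -0.005 in ABPS against AB0S and 0.005 in the difference. With the sperm gene level, ABPS against AB0S had *sek-1* (-0.01) and *pmk-1* (0.032), the difference had *tir-1* (-0.019), *sek-1* (0.002), *pmk-1* (-0.011), *pmk-3* (-0.003), *jnk-1* (-0.348) and *pmk-2* (-0.213), and AB0S against EV0S had *jnk-1* (-0.283) and *pmk-2* (-0.149).

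Leaving out 1 library at a time gave 0 to 2633 genes and 0 to 1 of the 10 in EVPS against EV0S, 0 to 3085 and 0 to 3 in ABPS against AB0S, 0 to 4908 and 0 to 2 in the difference, and 10 to 6524 and 0 to 6 in AB0S against EV0S. The highest count of genes was without EV0S repeat 3 in each contrast. EVPS against EV0S had 0 genes without EV0S repeat 1 or 2, EVPS repeat 1 or 2 or ABPS repeat 1, ABPS against AB0S had 720 without ABPS repeat 2, and AB0S against EV0S had 10 to 247 without EV0S repeat 1 or 2 or any AB0S library. The sign of 12 values changed with the library left out. In EVPS against EV0S the range was -0.034 to 0.041 for *sek-1*, -0.062 to 0.09 for *pmk-1*, -0.172 to 0.019 for *vhp-1*, -0.146 to 0.018 for *mkk-4*, -0.078 to 0.438 for *irg-5* and -0.291 to 0.126 for *nlp-29*. In ABPS against AB0S it was -0.015 to 0.053 for *sek-1*, -0.077 to 0.105 for *mlk-1* and -0.088 to 0.105 for *kgb-1*. In the difference it was -0.06 to 0.029 for *sek-1* and -0.007 to 0.512 for *jnk-1*, and in AB0S against EV0S -0.141 to 0.033 for *mlk-1*. Depth is unknown, so the limit it sets cannot be given. The simulated data, with 200 of 19089 genes changed, recovered 0% of log2 changes of 0.25. In the real EVPS against EV0S contrast 1399 genes passed, among them *mpk-1* at 0.20. The simulation therefore does not give the smallest effect that could be called in these data.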
